A study of Mus musculus with 4 samples.

Results

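Whole mouse blastocysts from fertilized oocytes were compared between tetraploid embryos, whose genome had been doubled by fusion, and diploid embryos. The comparison set 1 array of tetraploid against 1 array of diploid fertilized blastocysts and covered the probe sets (groups of short probes that measure 1 transcript) whose signal reached 500 on at least 1 of these 2 arrays. That held for 10536 of the 45037 probe sets that were not array controls, or 23.4%. Of them, 8892 reached 500 on both arrays, 912 on the diploid array alone and 732 on the tetraploid array alone. A probe set that entered through 1 array alone had to differ to some extent, so counts over both-array probe sets are given as well. Gene symbols were single for 9296 of these probe sets, which stood for 6129 named genes, each represented by its brightest probe set. The remaining 1240 had no single symbol.

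The diploid fertilized embryos were zygotes grown for 96 hours to day 4 blastocysts, and the tetraploid fertilized embryos had been fused. For each array 30 embryos were pooled and their total RNA was purified on a micro-scale column, put through 2 cycles of amplification and labelled with biotin. A second pair of arrays carried parthenogenetic diploid and parthenogenetic tetraploid blastocysts of the same stage, which develop from oocytes activated without sperm; it is given side by side where a second tetraploid and a second diploid pool help to place a value. The submitters treated each tetraploid pool as a stand-in for a repeat of its diploid counterpart. The strain, the age of the oocyte donors, the stage and method of fusion and the cell number of the embryos are not given in the sources used here.

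Tetraploid mouse embryos are usually made by fusing the blastomeres of an early cleavage embryo, after which they divide as tetraploid cells and reach the blastocyst stage with fewer and larger cells than diploid embryos. A blastocyst consists of the trophectoderm, an outer epithelium that pumps fluid inward and later forms placenta, and the inner cell mass, which splits into the epiblast, the source of the embryo proper, and the primitive endoderm, the source of the yolk sac lining. Tetraploid cells contribute well to placenta and yolk sac endoderm in chimaeras and poorly to the embryo proper, a property used in tetraploid complementation.

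Signals were deposited by the authors as MAS5 intensities on a linear scale, and every difference below is tetraploid minus diploid on the log2(signal + 10) scale, where 1 is a 2-fold difference and dim transcripts are understated. Each fertilized condition has 1 array, so no difference between the fertilized arrays has a replicate or a p-value. "Higher" and "lower" describe these 2 pools, and pairs of signals are given with the diploid array first. The one test of ploidy with 2 arrays on each side set tetraploid against diploid arrays over both origins, with origin as a covariate. It used limma with Benjamini-Hochberg adjustment, had 1 residual degree of freedom and called 0 of 23749 probe sets (0%) at an adjusted p under 0.05. The smallest adjusted p was 0.19, and 1426 probe sets had an unadjusted p under 0.05. Each condition had 1 array, so its p-values measure no spread between replicate pools. The residual of a probe set is how far its ploidy difference departs between the 2 origins. That spread is drawn toward the spread of probe sets of similar brightness. After quantile normalization of the 4 arrays the same limma fit called 55 probe sets, 24 higher and 31 lower. None of the 55 was called on the deposited scaling. Their adjusted p-values after quantile normalization are given with the genes described. Where a gene was chosen for its difference on these arrays, such a p-value is no separate support.

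The embryos matched their labels at the level of blastocyst markers. Probe sets at 500 or more were found for 22 of 26 trophectoderm markers, 17 of 26 epiblast and pluripotency markers and 16 of 25 primitive endoderm markers. Of the lists for other sources of RNA, 2 of 18 oocyte transcripts, 1 of 12 cumulus and granulosa markers, 1 of 9 sperm transcripts, 1 of 13 fibroblast markers and 0 of the blood cell markers reached 500. The Y-linked translation factor Eif2s3y had a signal of 1608 on the diploid and 2437 on the tetraploid array, a difference of 0.60. Xist, the RNA that silences 1 X chromosome in female cells, had 15357 on the diploid and 15529.6 on the tetraploid array, a difference of 0.02. Both fertilized pools thus held male and female RNA, and the share of male embryos in each pool was not tested. The array median was 131 for the diploid and 104 for the tetraploid fertilized array, although both had the same trimmed mean. For the Actb control the 3' probe set exceeded the middle one by a factor of 7.55 on the diploid and 5.55 on the tetraploid array, and for Gapdh by 3.72 and 4.08. The part of these array differences in the results was not tested. Scaling both arrays to a common median would move the median gene from 0.01 to 0.34, so groups are described relative to all genes, and a difference between -0.33 and 0 would turn positive under that scaling.

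Across all 10536 probe sets the arrays were close. Over these probe sets, which are not replicates of each other, the log2 signals correlated at 0.95. The median difference was 0.01, the middle of the distribution (25th to 75th percentile) ran from -0.29 to 0.32, and the 5th and 95th percentiles were -0.78 and 0.80. A difference of less than 1.5-fold was found for 8278 probe sets, or 78.6%. At least 2-fold higher signals in tetraploid embryos were found for 257 probe sets (2.44%) and at least 2-fold lower signals for 262 (2.49%). Among the 8892 probe sets at 500 or more on both arrays, 112 were 2-fold higher and 55 were 2-fold lower. Of the 912 that passed on the diploid array alone 207 were 2-fold lower, and of the 732 that passed on the tetraploid array alone 145 were 2-fold higher. Differences of 4-fold or more numbered 9 higher and 29 lower.

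**Figure D1:**
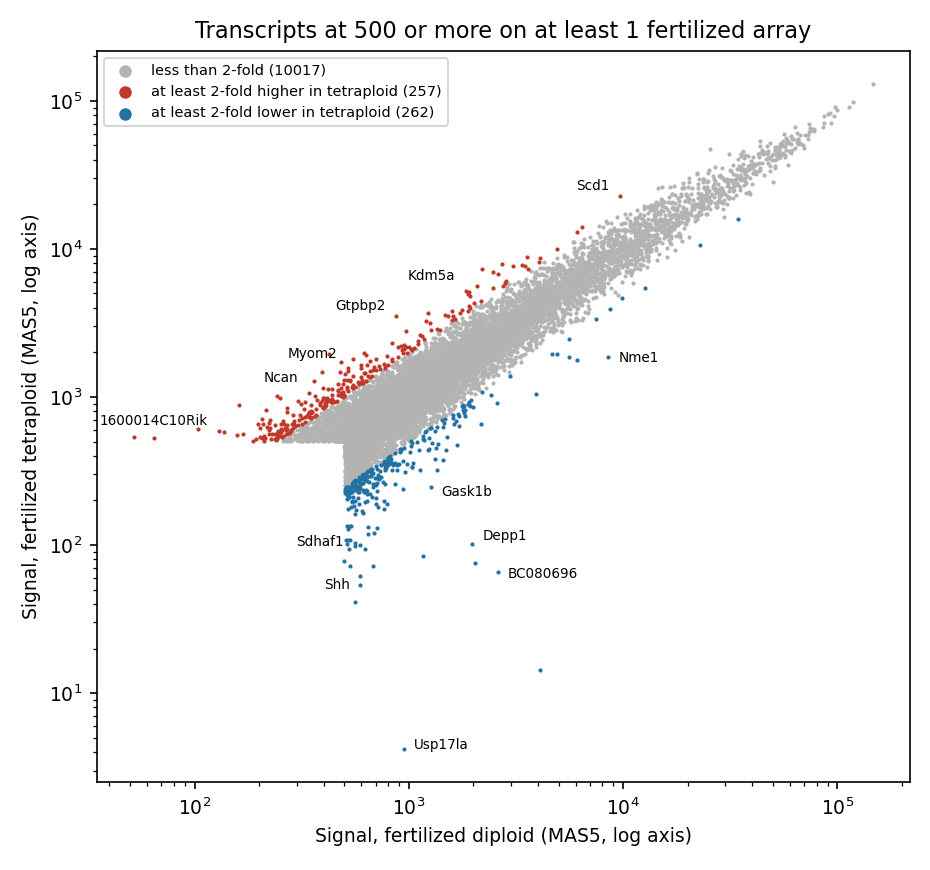
Signal on the fertilized diploid array (x) against the fertilized tetraploid array (y), both on log axes, for the 10536 probe sets at 500 or more on at least 1 of them; red and blue points are at least 2-fold higher (257) or lower (262) in tetraploid embryos. Most 2-fold differences lie among dim transcripts, and the few far below the cloud, such as Usp17la and BC080696, were at the background of the tetraploid array.

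Counted by gene, 118 of 6129 genes were at least 2-fold higher (1.93%) and 132 at least 2-fold lower (2.15%) in tetraploid embryos. The median gene differed by 0.01, and 51.0% of genes were higher. For 28 of the higher genes another probe set of the same gene also reached 500, and in 20 of these every such probe set was higher too. The same held for 16 of 20 lower genes. Dim transcripts differed more than bright ones. In the dimmest of 10 equal groups of probe sets the SD of the differences was 0.94, with 81 probe sets 2-fold higher and 154 lower, and in the brightest it was 0.34, with 3 in each direction.

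**Figure D2:**
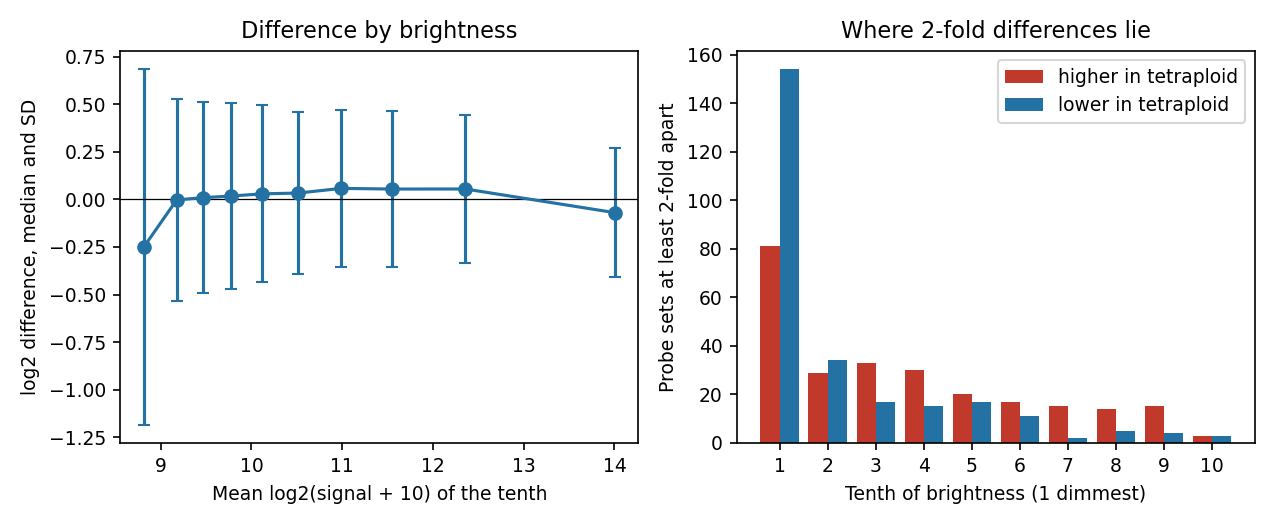
Left, median difference (points) and its SD over probe sets (bars), tetraploid minus diploid on the log2(signal + 10) scale, in 10 equal groups of the 10536 probe sets ordered by mean signal; right, number of probe sets at least 2-fold higher (red) or lower (blue) in each group. The SD runs from 0.94 in the dimmest to 0.34 in the brightest group.

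The parthenogenetic pair differed more than the fertilized pair. Under the same rule applied to the parthenogenetic arrays, 10822 probe sets entered, of which 489 were 2-fold higher and 718 lower in tetraploid embryos, 11.2% in either direction against 4.93% for the fertilized pair. Over the 6129 genes chosen on the fertilized arrays, 158 were 2-fold higher (2.58%) and 370 2-fold lower (6.04%) in the parthenogenetic pair, with a median of -0.07. The Actb ratio of 3' to middle signal was 9.28 on the parthenogenetic tetraploid and 5.13 on the parthenogenetic diploid array, and its part in this excess was not tested. The fertilized and parthenogenetic differences shared no array, and they correlated at 0.14 across the 10536 probe sets. Of the 257 probe sets 2-fold higher in the fertilized pair, 156 (60.7%) were also higher in the parthenogenetic pair, against 45.1% of all probe sets. Of the 262 lower ones, 162 (61.8%) were also lower, against 54.9%. The same direction at 2-fold or more in both origins was found for 28 probe sets higher and 49 lower, and opposite directions for 12 and 21.

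Of the 3 cell types of the blastocyst, the primitive endoderm had the largest shift. Of 16 members measured at 500 or more, 14 had a lower signal in tetraploid embryos and 2 were 2-fold lower, with a median of -0.58 against 0.01 for all genes. The 29 probe sets at 500 or more for these genes were lower in 24 cases. Trophectoderm markers had a median of 0.07 (13 higher and 9 lower) and epiblast and pluripotency markers a median of -0.09 (7 higher and 10 lower), with none 2-fold different in either list. Counted by probe set, 26 of 40 for trophectoderm markers were higher and 1 was 2-fold higher, with a median of 0.28. For epiblast markers 13 of 22 were lower, with a median of -0.11. In pooled whole embryos, fewer cells of a type and less RNA per cell cannot be told apart.

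The primitive endoderm members that differed most encode the basement membrane, which this tissue secretes in large amounts, and the receptors by which it takes up protein. Col4a2, a chain of type IV collagen, had a signal of 1494 on the diploid and 436 on the tetraploid array, a difference of -1.76. Its partner chain Col4a1 had 6608 against 3742 (-0.82). Among the laminin chains, Lama1 had 4646 against 2896 (-0.68), and Lamc1 had 1791 against 1005 (-0.83). Their partner chain Lamb1 was much brighter, with 25397 against 18571, and differed by -0.45. Sparc, a collagen-binding matrix protein, had 2939 against 1483 (-0.98). All 6 laminins and collagens at 500 or more were lower, with a median of -0.75, and 5 of them are also in the primitive endoderm list.

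The endocytic receptor pair of the primitive endoderm was lower as well. Cubn, which encodes cubilin, had a signal of 2408 on the diploid and 1028 on the tetraploid array, a difference of -1.22, and Lrp2, which encodes its partner megalin, had 5106 against 3159.6 (-0.69). Dab2, the adaptor that links these receptors to clathrin, is also made by trophectoderm and had 18194 against 16945 (-0.10). Among the regulators of the lineage, the endoderm factor Sox17 had 4712 against 2987 (-0.66), Gata6 had 1682 against 1458 (-0.21), and the growth factor receptor Pdgfra, which marks the lineage from its start, had 5864 against 5933 (0.02). Gata4, Sox7 and Hnf4a stayed below 500 on both arrays, with 297, 376 and 317 on the diploid and 151, 137 and 54.5 on the tetraploid array.

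In the parthenogenetic pair 14 of the 16 primitive endoderm genes were also lower and 7 were 2-fold lower, with a median of -0.81. In that pair 55.0% of all genes were lower and 6.04% were 2-fold lower, and the epiblast list had a median of -0.51, with 14 of 17 lower and 3 of them 2-fold lower. Cubn had 5611 on the parthenogenetic diploid and 1289 on the parthenogenetic tetraploid array, so that both tetraploid pools lay below both diploid pools. The same held for Col4a1, with 6377 and 2487, and for Lama1, with 7066 and 2379.9. The limma fit over both origins gave Cubn a difference of -1.67 (SE 0.29) with an adjusted p of 0.23, and Col4a1 and Lama1 adjusted p-values of 0.48 and 0.51. After quantile normalization 4 probe sets of primitive endoderm genes were among the 55 that limma called, all lower: 2 of Cubn (adjusted p 0.00067 and 0.0034), Lama1 (0.012) and Col4a1 (0.014). Plod2, a lysyl hydroxylase that modifies collagen and is not a member of the list, had 4915 on the diploid and 1945 on the tetraploid array, with 4891 against 1785 in the parthenogenetic pair, a difference of -1.33 and -1.45. It was called in the same setting (limma adjusted p 0.0020) and had an adjusted p of 0.25 in the fit on the deposited scaling.

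**Figure D3:**
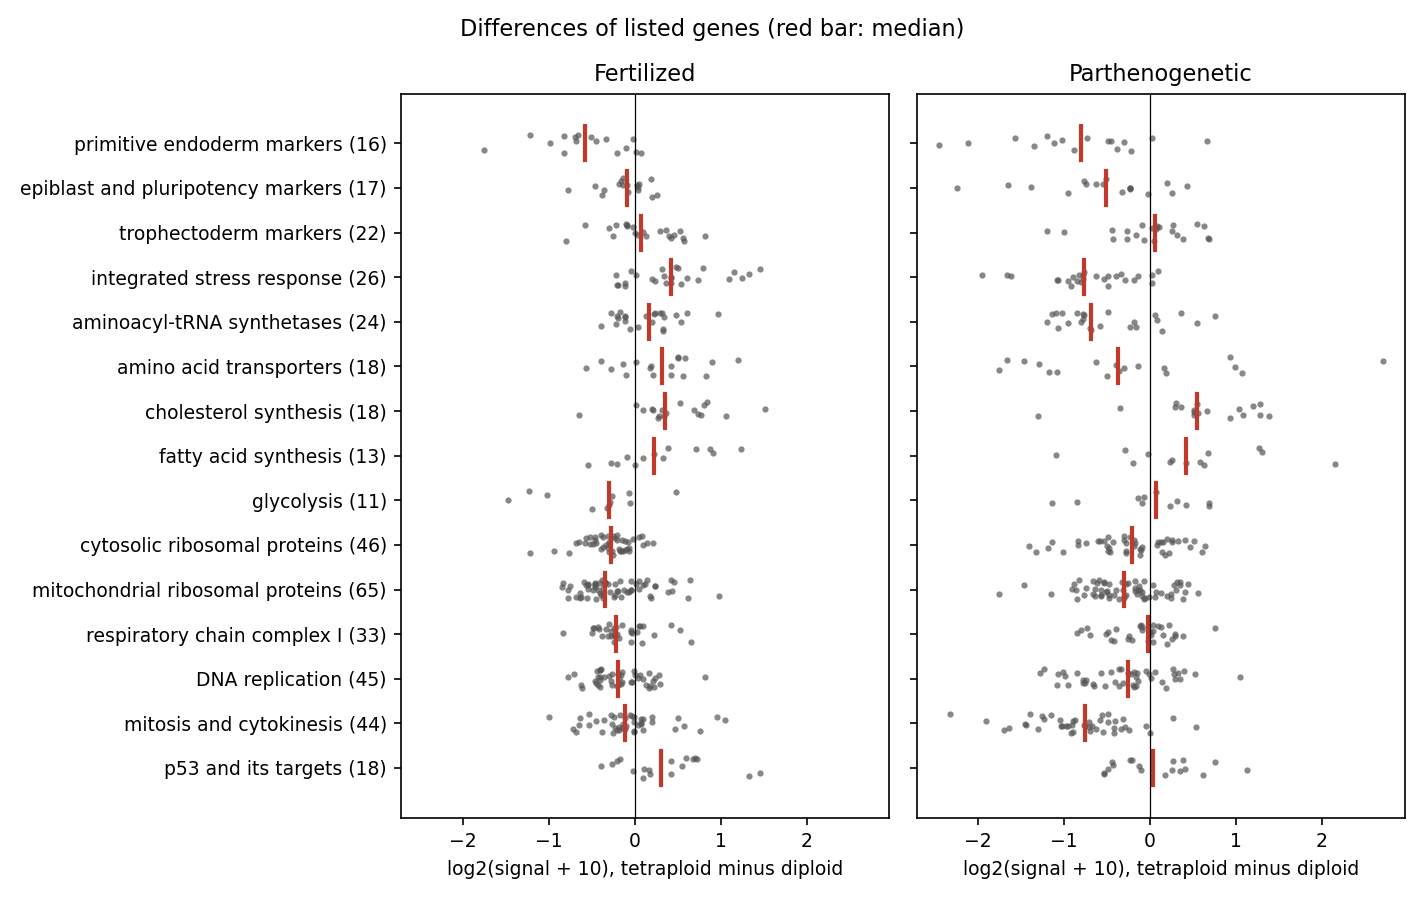
Difference of each gene (grey points; tetraploid minus diploid, log2(signal + 10)) in 15 gene lists for the fertilized pair (left) and the parthenogenetic pair (right), with the number of genes at 500 or more on a fertilized array in brackets and the median as a red bar. The medians of primitive endoderm markers lie below 0 and those of cholesterol synthesis genes above 0 in both pairs, whereas the integrated stress response genes have a median of 0.42 in the fertilized and -0.77 in the parthenogenetic pair.

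By their brightest probe sets, trophectoderm and epiblast markers were all less than 2-fold apart between the fertilized pools. Eomes, a T-box factor needed for trophoblast stem cells, had the largest difference of the trophectoderm list, with 8014 on the diploid and 14117 on the tetraploid array (0.82). Cdx2, the homeobox factor that sets the lineage, had 5496 against 4711 (-0.22), and Lgals3, a galectin of the outer epithelium, was the lowest with 3302 against 1896 (-0.80). Of the epiblast list, Dppa3, a chromatin factor inherited from the oocyte and made again in the inner cell mass, had 4712 against 2752 (-0.77). Tdgf1, a Nodal coreceptor, had 4839.8 against 3505 (-0.46). Nanog had 2409 against 2201, and Pou5f1 had 581 against 604. Genes of the fluid-pumping epithelium (pumps, water channels and junctions) had a median of 0.13 over 22 members, with 15 higher; Epcam, an epithelial adhesion protein, had 16599 against 26196 (0.66), and Ocln, a tight junction protein, had 1010.4 against 1553 (0.62). No member of that list was 2-fold different by its brightest probe set. In the Hippo pathway, which reads cell position to set the trophectoderm, the median of 20 members was 0.16, and Vgll4, a repressor of TEAD factors, was the sole 2-fold member with 504 against 239 (-1.05).

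Genes of the integrated stress response had the largest upward shift of the lists with 10 or more members. In this response, kinases that sense scarce amino acids, unfolded protein or haem slow translation through eIF2, and the transcription factor ATF4 then switches on amino acid synthesis, amino acid import and tRNA charging. Of 26 members at 500 or more, 20 were higher in tetraploid embryos, 5 were 2-fold higher and 0 were 2-fold lower, with a median of 0.42 against 0.01 for all genes. Over all 44 probe sets of these genes, 35 were higher and 6 were 2-fold higher.

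Of the 5 members past 2-fold, 3 are brakes on growth or on the response itself. Sesn2, a leucine sensor that holds back mTORC1, had a signal of 837 on the diploid and 2314 on the tetraploid array (1.46). Ddit4, another inhibitor of mTORC1, had 3071 against 7709.6 (1.33). Trib3, a pseudokinase that damps ATF4 activity, had 919.8 against 2207 (1.25). All 3 were more than 2-fold apart between the pools. Herpud1, a protein of endoplasmic reticulum disposal, had 346 against 779.9 (1.15), and Mthfd2, a mitochondrial folate enzyme, had 6095 against 13077 (1.10). Sesn2 and Ddit4 are also p53 targets and were the 2 genes of the p53 list past 2-fold; that list had a median of 0.30 with 13 of 18 higher, while its classical member Cdkn1a, a cell cycle inhibitor, had 1075 against 891 (-0.27).

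The remaining members differed less. Atf4 itself, which is controlled mainly at translation, had 14791 on the diploid and 14389.5 on the tetraploid array (-0.04). Its partner Cebpg had 1929.6 against 3229 (0.74), and its stress-induced target Nupr1 had 472 against 827 (0.79). Asns, asparagine synthetase, had 4214 against 5429 (0.36), and Psat1, an enzyme of serine synthesis, had 10995 against 14709.9 (0.42). The other serine pathway genes Phgdh (-0.21) and Shmt2 (-0.22) were slightly lower. Aminoacyl-tRNA synthetases, which load amino acids onto tRNA and share 8 members with the stress list, had a median of 0.16 over 24 members, with 14 higher and none 2-fold different; Cars, for cysteine, had 322 against 641 (0.97). Amino acid transporters, with 4 shared members, had a median of 0.32 over 18, with 13 higher. Slc6a14, an importer of neutral and basic amino acids, had 624 against 1452 (1.20) and was the sole transporter past 2-fold. Slc38a4, an importer of small neutral amino acids expressed from the paternal allele, had 3098 against 5781 (0.90).

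The parthenogenetic pair went the other way for most of this group. There 23 of the 26 stress genes were lower in tetraploid embryos and 5 were 2-fold lower, with a median of -0.77, and 18 genes were higher in the fertilized and lower in the parthenogenetic pair. Trib3 had 1977 on the parthenogenetic diploid and 1107 on the parthenogenetic tetraploid array, Sesn2 had 2080.2 and 1433, and Ddit4 had 7468 and 5323. For these 3 genes the fertilized diploid array held the lowest of the 4 signals. Over the list, the fertilized diploid array was lowest for 15 of 26 genes and the parthenogenetic diploid array highest for 17. The synthetases had a median of -0.69 and the transporters of -0.38 in the parthenogenetic pair. The limma fit, which averages both origins, gave Trib3 a difference of 0.21 (SE 0.38, adjusted p 0.96) and Sesn2 one of 0.46 (SE 0.37, adjusted p 0.87). The difference between origins was not tested, because each origin has 1 array of each ploidy.

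Promoter sequences from RefSeq (GRCm38.p6) were searched for the core of the element that ATF4 dimers bind, TGATGNAA on either strand in the 250 bases before the gene start. Of the 26 stress genes, 22 had an entry, and 6 of these held the core (27.3%), against 1056 of 27025 genes (3.91%). The list names genes of the response that ATF4 drives, so its higher share is no separate support. The median difference in the fertilized pair was 0.43 for the 6 with it and 0.38 for the 16 without. The sterol element TCACNCCAC, searched in the same way, was found in 0 of the 22. The windows below are shown because they belong to the list with the largest upward shift among those with 10 or more members. They run 5′ to 3′ on the strand of the gene with the core in capitals, which appears as its reverse complement where it lies on the opposite strand, as in 5 of the 6. They lie at chr6:7693210-7693272 (minus strand) for Asns, chr8:111033690-111033777 (plus) for Aars, chr6:55037931-55038000 (plus) for Gars, chr8:94386277-94386364 (plus) for Herpud1, chr7:126625533-126625620 (minus) for Nupr1 and chr19:27216780-27216867 (plus) for Vldlr. A match is a description of letters, not of binding.
Asns: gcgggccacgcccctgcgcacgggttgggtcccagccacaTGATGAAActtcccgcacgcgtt
Aars: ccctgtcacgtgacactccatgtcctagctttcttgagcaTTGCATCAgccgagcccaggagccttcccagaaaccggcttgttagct
Gars: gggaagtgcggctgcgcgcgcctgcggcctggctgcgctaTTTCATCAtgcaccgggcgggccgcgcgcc
Herpud1: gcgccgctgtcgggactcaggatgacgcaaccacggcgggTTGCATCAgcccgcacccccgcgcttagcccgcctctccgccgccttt
Nupr1: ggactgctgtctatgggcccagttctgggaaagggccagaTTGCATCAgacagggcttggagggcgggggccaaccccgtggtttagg
Vldlr: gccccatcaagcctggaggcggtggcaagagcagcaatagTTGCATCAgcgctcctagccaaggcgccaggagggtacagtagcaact

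Of these 6 genes, Herpud1 (1.15), Nupr1 (0.79) and Vldlr (0.49), a lipoprotein receptor, had the larger differences in the fertilized pair. Asns had 0.36, and the alanine and glycine tRNA synthetases Aars and Gars had 0.24 and -0.11. In the parthenogenetic pair all 6 were lower, from -1.96 for Vldlr to -0.14 for Herpud1.

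Cholesterol synthesis genes were higher in the tetraploid pool of both origins. The enzymes of this pathway are switched on together by SREBP2 when membrane sterol is low. Of 18 members at 500 or more, 17 were higher in tetraploid fertilized embryos and 2 were 2-fold higher, with a median of 0.35; the 26 probe sets of these genes were higher in 24 cases. In the parthenogenetic pair 16 of the 18 were higher and 6 were 2-fold higher, with a median of 0.55.

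The 2 members past 2-fold are enzymes of the oxygen-dependent steps. Cyp51, the lanosterol demethylase, had a signal of 968 on the diploid and 2790.2 on the tetraploid array (1.52), and Sqle, the squalene epoxidase, had 2807 against 5896 (1.07). Lss, which closes the sterol rings between these steps, had 806 against 1416 (0.81), and Fdps, which makes farnesyl diphosphate, had 439 against 797 (0.85). Insig1, the sterol-regulated brake on SREBP processing, had 1605 against 2743 (0.77). Hmgcs1, the bright enzyme at the head of the pathway, had 23621 against 29438 (0.32). The exception was Dhcr7, the last enzyme, with 1709 against 1090.0 (-0.64). Cyp51 had 1638 and 4000.0 in the parthenogenetic pair, so both tetraploid pools lay above both diploid pools. In the limma fit its difference was 1.40 (SE 0.27) with an adjusted p of 0.25, and after quantile normalization its adjusted p was 0.0055.

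Of the 18 sterol genes, 14 had a RefSeq promoter entry. The sterol element TCACNCCAC was found in 1 of these (7.14%), Hmgcs1, against 331 of 27025 genes (1.22%), and the TGATGNAA core in 1, Idi1. The Hmgcs1 window is shown because this gene carries the only match of the sterol element in the list; it lies at chr13:119690174-119690262 on the plus strand, with the element in capitals.
Hmgcs1: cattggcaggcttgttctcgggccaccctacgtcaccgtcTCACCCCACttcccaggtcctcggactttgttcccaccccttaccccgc

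Fatty acid genes showed a smaller shift, with a median of 0.22 over 13 members, 9 of them higher. Scd1, the desaturase that makes oleic acid, was the bright exception, with 9675 on the diploid and 22744 on the tetraploid array (1.23) and with 9774 and 24204 in the parthenogenetic pair (1.31). Both tetraploid pools lay more than 2-fold above both diploid pools. Its other bright probe set differed by 0.61 in the fertilized pair. The limma fit gave 1.27 (SE 0.24, adjusted p 0.25), and 0.00067 after quantile normalization. Me1, the malic enzyme that supplies NADPH, had 778 against 1282 (0.71) and was called after quantile normalization (limma adjusted p 0.024), and the acyl-CoA synthetases Acsl4 and Acsl3 had differences of 0.91 and 0.88. Fasn, the fatty acid synthase itself, was lower, with 1213 against 833 (-0.54).

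**Figure D4:**
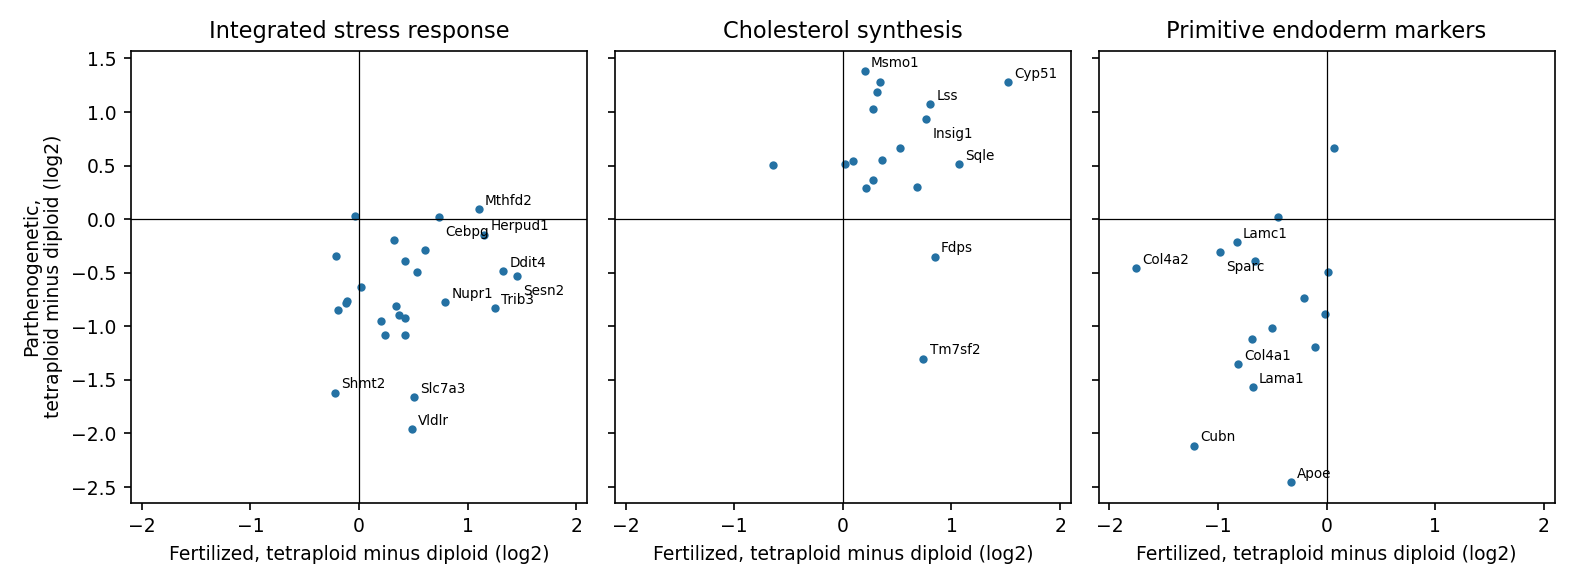
Difference of each gene in the fertilized pair (x) against the parthenogenetic pair (y), both tetraploid minus diploid on the log2(signal + 10) scale, for integrated stress response (left), cholesterol synthesis (centre) and primitive endoderm genes (right). Stress genes lie mainly to the lower right (18 of 26 higher in the fertilized and lower in the parthenogenetic pair), sterol genes mainly to the upper right and primitive endoderm genes to the lower left.

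Glycolysis genes were lower in tetraploid fertilized embryos relative to all genes. Of 11 members at 500 or more, 10 were lower and 3 were 2-fold lower, with a median of -0.29 that became 0.04 under a common array median. Ldha, a subunit of lactate dehydrogenase, had 1367 on the diploid and 484 on the tetraploid array (-1.48). Pkm, the pyruvate kinase, had 716 against 299 (-1.23), and Pdk1, a kinase that keeps pyruvate out of the mitochondrion, had 649 against 315 (-1.02). These 3 were the dim end of the list and reached 500 on the diploid array alone. The bright members differed less: Slc2a3, a glucose transporter, had 41158 against 33595 (-0.29), and Pgk1 had 14133 against 11794 (-0.26). Hk2, the hexokinase that starts the pathway, was the sole higher member, with 9601 against 13390.5 (0.48). In the parthenogenetic pair the list had a median of 0.07, and Ldha was again lower, with 779.9 and 348.

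Components of the ribosome and of the respiratory chain were lower relative to all genes by small amounts in most members. Under a common array median the list medians became 0.05 for cytosolic ribosomal, -0.01 for mitochondrial ribosomal and 0.12 for complex I genes, against 0.34 for all genes. Of 46 cytosolic ribosomal protein genes, 41 were lower, with a median of -0.28, and of their 85 probe sets 73 were lower. Rpl19, of the large subunit, was the sole gene past 2-fold, with 12664 on the diploid and 5454 on the tetraploid array (-1.21), and was called after quantile normalization (limma adjusted p 0.045); Rps25, of the small subunit, had the largest positive difference, with 6183 against 7176 (0.21). Of 65 mitochondrial ribosomal protein genes, 48 were lower, with a median of -0.34 and none past 2-fold; they ranged from Mrpl28 (-0.84) to Mrpl50 (0.98). Complex I of the respiratory chain had a median of -0.21 (24 of 33 lower), complexes II to IV -0.17 (16 of 21 lower) and the mitochondrial ATP synthase -0.21 (11 of 16 lower). Ndufb7, a subunit of complex I, had 9177 against 5136 (-0.84), Cox8a, of complex IV, had 515 against 135 (-1.86), and Atp5g1, of the ATP synthase rotor, had 1891 against 898 (-1.07). In the parthenogenetic pair the medians were -0.21 for cytosolic and -0.30 for mitochondrial ribosomal genes, but -0.02 for complex I and 0.13 for complexes II to IV. The brightest of the 10 groups of probe sets had a median of -0.07.

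The mitosis, DNA replication and centrosome lists had medians between -0.19 and -0.07. All 44 genes of the mitosis and cytokinesis list were at 500 or more, with a median of -0.12, 14 higher and 30 lower. Nuf2, a kinetochore protein, was the sole member past 2-fold, with 492 on the diploid and 1031 on the tetraploid array (1.05). Plk1, a master kinase of mitosis, had 434 against 855 (0.96), and Ttk, the spindle checkpoint kinase, had 1449 against 721. The parthenogenetic pair had a median of -0.76 in the same list, with 42 of 44 lower and 14 of them 2-fold lower, against 55.0% of all genes lower and 6.04% 2-fold lower in that pair. After quantile normalization 3 probe sets of this list were among the 55 that limma called, all lower: Cdc20, which activates the anaphase-promoting complex (-2.28, adjusted p 0.00012), Cdk1, the kinase that drives entry into mitosis (-1.39, 0.0088), and Prc1, which bundles microtubules in cytokinesis (-1.20, 0.012). Their fertilized differences on the deposited scaling were -0.52, -0.45 and -0.72, and their parthenogenetic ones -3.79, -2.33 and -1.64. DNA replication genes had a median of -0.19, with 31 of 45 lower and none past 2-fold; Orc3, of the origin recognition complex, had -0.78 and Gins2, of the replicative helicase, had 0.82. Mcm7, of the same helicase, was called lower after quantile normalization (limma adjusted p 0.045), with -0.71 in the fertilized and -1.07 in the parthenogenetic pair. Centrosome and centriole genes had a median of -0.07 over 18 members.

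Among regulators of the G1 phase, where 17 genes had a median of -0.16, 1 was 2-fold higher and 1 was 2-fold lower. Ccnd1, cyclin D1, had 436 on the diploid and 921 on the tetraploid array (1.06), and Rb1, the retinoblastoma protein that cyclin D kinases inactivate, had 583 against 227 (-1.33). Apoptosis genes had a median of 0.14 over 16 members with none 2-fold different. The 7 immediate early genes had a median of 0.59, with 5 of them higher. Fosl2, a subunit of AP-1, was the member past 2-fold among them, with 339 against 772 (1.16), and Klf6, an early zinc finger factor, had 3719 against 7053 (0.92). A second probe set of Klf6, with 2184 against 7318 (1.74), was called higher after quantile normalization (limma adjusted p 0.013).

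Genome doubling leaves the ratio of X to autosomes as it was, and the genes of the X chromosome had a median of -0.10 over 205 members, with 3 genes 2-fold higher and 3 lower. Chromosome medians ran from -0.15 on chromosome 7 (391 genes) to 0.06 on chromosome 1 (359 genes). Rhox5, a homeobox gene on the X chromosome, had 1512 on the diploid and 533 on the tetraploid array (-1.49) and 2902 and 1237 in the parthenogenetic pair (-1.22), so both tetraploid pools lay below both diploid pools. Its limma adjusted p after quantile normalization was 0.032. Paternally expressed imprinted genes had a median of 0.31 over 10 members, 9 of them higher and none 2-fold, and maternally expressed ones a median of -0.06 over 13. From the maternally expressed list, Phlda2 was called higher after quantile normalization (1.69 over both origins, limma adjusted p 0.0070). Iron handling genes had a median of -0.02 over 7. Within that list Slc40a1, ferroportin, the iron exporter, had 1913 against 5138 (1.42) and 13888 and 25455 in the parthenogenetic pair (0.87). Its limma adjusted p was 0.37, and 2 of its probe sets were called after quantile normalization (adjusted p 0.00078 and 0.012).

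Several other families had medians from -0.09 to 0.11. Proteasome subunits had a median of -0.09 over 33 members, translation initiation and elongation factors 0.07 over 46, endoplasmic reticulum folding and secretion genes -0.02 over 34, heat shock genes and chaperones -0.08 over 22, splicing factors -0.03 over 37, hnRNPs 0.04 over 18, Zfp zinc finger genes 0.01 over 90, Rab GTPases 0.05 over 27 and solute carriers 0.11 over 111. Medians farther from 0 were found for claudins, the seal of tight junctions (0.48 over 4), core and linker histones (-0.30, 4 of 4 lower), serpins (-0.28, 4 of 6 lower), the CCT chaperonin, which folds actin and tubulin (-0.26, 6 of 8 lower), DEAD- and DEAH-box helicases (-0.21, 20 of 32 lower) and ubiquitin-specific proteases (0.18 over 31). Over all probe sets at 500 or more, the CCT chaperonin had a median of 0.02, with 10 of 20 lower. Serpins had one of -0.01 in that count, with 4 of 7 lower. Of the 24 histone genes on the array, 20 stayed below 500. The histone H1f2 was called higher after quantile normalization (2.48 over both origins, limma adjusted p 0.0034). The 6 histone probe sets at 500 or more were all lower in the fertilized pair. Single members of the families above differed more than their family. Rab22a, which recycles endosomes, had 270.1 on the diploid and 842 on the tetraploid array (1.61), while Rab4b had 765 against 199.6 (-1.89). Slc22a4, a transporter of ergothioneine and carnitine, had 304 against 941 (1.60). Psmd10, an assembly chaperone of the proteasome, had 329 against 680.1 (1.03), and Lmnb2, a nuclear lamin, had 273 against 567 (1.03).

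The single genes with the largest upward differences were mostly dim in diploid embryos. 1600014C10Rik had 64.6 on the diploid and 529 on the tetraploid array, and since the diploid signal lay under the floor of that array (145, the 95th percentile of 27 probe sets for bacterial transcripts), it was at least 3.66-fold higher. Gtpbp2, a GTPase of ribosome rescue, had 871 against 3532 (2.01), and its other bright probe set differed by 0.83. Ncan, the proteoglycan neurocan, had 340.3 against 1067 (1.62), and Mmab, an enzyme of vitamin B12 activation, had 224 against 704 (1.61). Kdm5a, a histone demethylase, had 1837 against 5207. It was called after quantile normalization (limma adjusted p 0.032) and had an adjusted p of 0.51 in the fit on the deposited scaling. The rest of the 15 largest were Adprhl2 (1.69), BC016579 (1.69), Lor (1.57), Entr1 (1.55) and Zbtb41 (1.51), with Rab22a, Slc22a4, Cyp51, Sesn2 and Myom2, which are described elsewhere.

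Of the 15 largest downward differences, 7 were in transcripts that the tetraploid array did not separate from background. Usp17la, a deubiquitinase gene of a family expressed at the 2-cell stage, had 944 on the diploid and 4.18 on the tetraploid array, which makes it at least 9.47-fold lower against the tetraploid floor of 99.7. BC080696 had 2595 against 65.9, at least 26.0-fold lower, and Shh, the Hedgehog ligand, had 591 against 53.8, at least 5.93-fold lower. The same held for 1700003E16Rik (at least 5.63-fold), Fbxo34 (at least 6.29-fold), Sdhaf1, an assembly factor of respiratory complex II (at least 5.6-fold), and Lrch1 (at least 5.24-fold). In all, 14 of the 262 lower probe sets were at the floor of the tetraploid array. Of the 257 higher probe sets, 5 were at the floor of the diploid array. On the parthenogenetic diploid and tetraploid arrays 1700003E16Rik had 42.7 and 85.1, under their floors of 113 and 150.3. There Usp17la and BC080696 had no gap like the fertilized one, with 390.2 and 533 for Usp17la and 343 and 426 for BC080696. The limma fit, which averages both origins, called both lower after quantile normalization (adjusted p 0.041 and 0.015). In the parthenogenetic pair alone both were higher (0.44 and 0.30). The other 2-cell stage gene at 500 or more, Eif1a, had 12414 against 11592 (-0.10), and Duxf3, Tcstv1, Tcstv3, Zfp352 and Sp110 stayed under 500 on both arrays.

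Above the floor, Depp1, a FOXO target linked to autophagy, had 1974 on the diploid and 102 on the tetraploid array (-4.15), and Nme1, a bright nucleoside diphosphate kinase, had 8478 against 1849 (-2.19). The other bright probe set of Nme1 differed by -0.32, so its probe sets differ in size. Ube2t, a ubiquitin-conjugating enzyme of DNA crosslink repair, had 647 against 119 (-2.35). The others of the 15 largest were Ccdc92 (-2.17), Smim11 (-2.14), Oxld1 (787 against 189.7), Gm11517 (-1.93) and Gask1b, which follows. Most of these reached 500 on the diploid array alone.

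A 2-fold difference in the same direction in both origins was found for 16 genes higher and 27 lower in tetraploid embryos. Myom2, known as a protein of the muscle sarcomere, had 518 on the diploid and 1567 on the tetraploid array, with 1202 against 4702 in the parthenogenetic pair, differences of 1.58 and 1.96. Its limma adjusted p of 0.19 was the smallest of the fit on the deposited scaling, shared with a probe set of Slc40a1, and 2 of its probe sets were called after quantile normalization (adjusted p 0.00068 and 0.0055). Neat1, the noncoding RNA that builds nuclear paraspeckles, had 3548 against 8797, with 5169 against 10994 in the parthenogenetic pair, differences of 1.31 and 1.09. For Myom2 and Neat1 both tetraploid pools lay above both diploid pools. Ncan (1.62 and 1.25), Mmab (1.61 and 1.54), Tceanc2 (1.21 and 1.69), the kinase Dyrk1a (1.09 and 1.21), the transcription factor Usf3 (1.09 and 1.09) and Slc6a14 (1.20 and 1.07) were also at least 2-fold higher in both origins, beside Cyp51 and Scd1. For Slc6a14 this did not hold for its other bright probe set (0.05 in the fertilized pair). Neat1 and Ncan were called after quantile normalization (limma adjusted p 0.0047 and 0.014), with 0.27 and 0.28 on the deposited scaling. The genes of this paragraph were chosen for their differences in both origins, so limma values from the same arrays are no separate support.

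Of the genes lower in both origins, Gask1b, a secreted Golgi protein, had 1265 on the diploid and 246 on the tetraploid array, with 323 against 48.4 in the parthenogenetic pair (-2.32 and -2.51). Its limma difference was -2.41 (SE 0.49, adjusted p 0.27), and its adjusted p after quantile normalization was 0.012. Frmd4a, a scaffold of epithelial polarity, had 760.1 against 268 (-1.47 and -1.92). It was also called after quantile normalization (adjusted p 0.040, limma) and had an adjusted p of 0.40 in the fit on the deposited scaling. Lrrc8c, a subunit of volume-regulated anion channels, had 568 against 173 (-1.66 and -1.54), and Top3b, a topoisomerase, had 677 against 248 (-1.41 and -1.28). Cox8a (-1.53 in the parthenogenetic pair), Gm11517, Desi1 (-1.39 and -1.73), Fbxo25 (-1.53 and -1.37), Plod2 and Smim11 complete the 10 with the largest differences in both origins. The parthenogenetic tetraploid signals of Gask1b, Cox8a, Smim11 and Gm11517 lay under that array's floor of 150.3, so their parthenogenetic differences have no fixed size.

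Opposite 2-fold differences in the origins were found for 5 genes that were higher and 6 that were lower in fertilized tetraploid embryos. The higher ones were Rsl24d1, a ribosome assembly factor (1.28 and -1.31), Aaas, a nucleoporin (1.22 and -1.19), Zxdc, Nrd1 and Lmnb2 (1.03 and -2.43). The lower ones were Sdhaf1, Aif1l (-1.17 and 2.23), Flot1, Pask, Haus8 and Zcchc17 (-1.05 and 3.89). For Pask and Zcchc17 the parthenogenetic diploid signal, and for Lmnb2 the parthenogenetic tetraploid signal, lay under the floor of its array. All 11 were below 500 on at least 1 of the 4 arrays.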

How the data were processed

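The authors deposited 1 MAS5 intensity per probe set and array, on a linear scale; MAS5 is named in the submitters' processing notes without a version. Of 45101 probe sets, 64 controls were left out. The platform annotation gave 1 symbol for 34958, several for 932 and none for 9211, and 34754 of the first matched RefSeq genes of GRCm38.p6. Signals were kept in their deposited scaling and analysed as log2(signal + 10). A gene stood by its brightest probe set. A signal at or under the array floor gives an "at least" fold, with the floor in its place. Ploidy was tested with limma 3.58.1 (R 4.3.3, lmFit, eBayes with trend) on probe sets at or above the array median on at least 2 of 4 arrays. The code was run on simulated data with small independent noise, large changes and no response particular to 1 origin. That run does not show how the fit behaves on these arrays.

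Named genes were the 15 largest differences in each direction without a bright probe set of the other sign, which left out 8 higher and 4 lower genes, the 10 largest in both origins, and in each list its members past 2-fold (up to 4) or its 2 largest; others were chosen after their values were seen. Members and the 66 gene lists and families were chosen with earlier results of these data known. Alternatives were other scalings, pseudocounts and signal filters, all probe sets of a gene, and other limma settings. The number of arrays limits precision.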

Additional observations from a re-analysis of the deposited data

Results flagged for a closer look

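The integrated stress response list had a median difference of 0.42 in the fertilized and -0.77 in the parthenogenetic pair, opposite directions in the origins. Amino acid transporters, 4 of which are also in that list, had 0.32 in the fertilized and -0.38 in the parthenogenetic pair. Sdhaf1, an assembly factor of respiratory complex II, differed by -2.39 in the fertilized and by 1.15 in the parthenogenetic pair. Its fertilized tetraploid signal of 98.3 lay under the array floor of 99.7, so the fertilized difference has no fixed size and was at least 5.6-fold lower. With 1 array for each ploidy and origin, the difference between origins was not tested for any of the 3.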

How the results depend on the processing

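Scaling each array to a common median moved the median gene from 0.01 to 0.34, so that 862 probe sets were 2-fold higher and 101 lower, and 89.5% of these were higher against 49.5% in the deposited scaling. List medians are therefore best read against the median of all genes in the same setting. Read that way, 59 of the 66 lists were compared under the alternatives run. The hatching proteases (3 genes, -0.26 in the deposited scaling) reversed to 0.49 without a signal filter. Every other list compared stayed within 1.5-fold of its value, and those at least 0.25 from all genes kept their direction. The lists for other sources of RNA, 2-cell stage genes and Y-linked genes were not compared. The 2-cell stage median of -3.09 became -0.10 when 500 was required on both arrays. Requiring 500 on both arrays left 112 higher and 55 lower, a geometric mean of 500 left 181 higher and 111 lower, and no filter gave 6058 higher and 8612 lower over 45037 probe sets, most of them dim. Quantile normalization and lowess centring gave 262 to 265 higher and 237 to 240 lower. The limma fit called 55 probe sets after quantile normalization and 0 with no trend, no origin covariate, pseudocount 50 or a mean signal of 500; the cause was not tested. Pseudocounts moved only differences against background (Usp17la, BC080696, 1700003E16Rik and Shh) by over 1.5-fold among the named genes. No paired analysis was possible because each condition has 1 array, so no replicate numbers pair arrays, beside the origin covariate of the limma fit. Without replicate pools of either ploidy, the variation between pools of 1 kind is unknown, and ploidy cannot be told apart from the pool, the fusion procedure and the array.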

Other observations

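Transcripts without a single gene symbol held the largest difference of all. Of 1240 such probe sets, 34 were 2-fold higher (2.74%) and 34 2-fold lower, shares close to those of all probe sets, and 5 were 4-fold lower. The probe set 1443961_at had fertilized signals of 4098 (diploid) and 14.3 (tetraploid), at least 41.1-fold lower against the array floor, with 569 and 1166 on the parthenogenetic diploid and tetraploid arrays. The probe set 1442334_at had 2036 and 75.9 on the fertilized arrays, at least 20.4-fold lower, with 447 and 292 on the parthenogenetic ones. Likewise, 1457033_at had 1159 and 83.9, at least 11.6-fold lower, with 548 and 165. In the limma fit, which averages both origins, all 3 were called lower after quantile normalization (adjusted p 0.0020, 0.0024 and 0.0020, in that order). In the parthenogenetic pair alone, 1443961_at was higher (1.02). These calls are no separate support, because the 3 were chosen for their fertilized gap. The genes of these 3 probe sets are not given by the annotation used here. With Usp17la and BC080696 they make a set of 5 transcripts, chosen after their values were seen, that were bright in diploid and at background in tetraploid fertilized embryos.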
